A study of Mus musculus with 13 samples.

Results

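The genes described here are 43 nuclear genes that keep and express the mitochondrial genome in Sertoli cells of adult male mice, together with the mitochondrial aminoacyl-tRNA synthetases. They were chosen by name, as rows of the count table with exactly these gene symbols, out of 27111 named genes. Of the 43 genes, 42 are rows of the table and 41 had enough counts to be tested among 14421 genes. *Suv3* is not a row under that name. The mouse symbol of that RNA helicase, *Supv3l1*, is a row and was counted with other genes of the pathway. *Ppargc1a* is a row but had too few counts for the test. *Lars2* was taken apart from the others because of its level.

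The cells came from wild-type C57Bl/6J males that had been exposed to MSUS, in which pups are separated from the dam and the dam is stressed, both at unpredictable times, or were left undisturbed as controls. MSUS pups spent 3 h a day away from the dam between postnatal days 1 and 14. Dams were meanwhile put through a forced swim of 5 min at 18 °C or were restrained for 20 min. RNA of 6 control and 7 MSUS adults was sequenced, 1 library per male, from 5 ng of total RNA each. Sertoli cells are the somatic cells of the seminiferous tubule that nourish the germ cells. They were enriched by sorting diploid, large cells with a high MitoTracker signal, a dye for mitochondria, so the sort itself selected on a mitochondrial property. Libraries held between 12701776 and 18649945 counts. The 5 Sertoli cell markers had mean log2 CPM of 10.18 ± 0.10 (SD) over the controls and 10.15 ± 0.094 over the MSUS samples, and the 4 elongated spermatid markers had 7.90 ± 0.23 and 8.09 ± 0.46. No marker of these lists was at 0 in all samples. In RNA from a cell fraction, fewer cells of a type and less RNA per cell cannot be told apart.

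Mitochondria carry a small circular genome, mtDNA, which encodes subunits of the respiratory chain and the RNAs needed to translate them. Everything else is encoded in the nucleus. TFAM packs mtDNA, the polymerase POLG copies it with its accessory subunit POLG2 and the helicase Twinkle, and POLRMT transcribes it with TFB2M. LRPPRC and SLIRP bind the messenger RNAs and stabilise them, and the mitochondrial aminoacyl-tRNA synthetases load tRNAs with amino acids. The transcription factors NRF1 and GABPA act on the promoters of many of these genes, and PGC-1α and PGC-1β, encoded by *Ppargc1a* and *Ppargc1b*, are coactivators of mitochondrial biogenesis.

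Because GABPA and NRF1 are measured here and are known for acting on genes of this kind, the promoters of the genes were searched for their cores. The RefSeq promoters of GRCm38.p6, from 250 bases before a gene's start to 50 bases after it, matched 36 of the 43 genes. The ETS core CCGGAAG, the kind of sequence that GABPA binds, was looked for on both strands and was present in 17 of these 36 genes, or 47.2%. It was present in 18.8% of all genes tested, in 26.3% of the other pathway genes and in 38.5% of the cytosolic synthetases with a promoter. The NRF1 core, GCGCA and GCGC with 1 base of any kind between them, was searched in the same way and was present in 4 of the 36 genes, or 11.1%, and in 1189 of the 10830 genes tested that have a promoter, a like share. The promoters of *Tfam*, *Polrmt*, *Tufm* and *Slirp* are printed as examples of genes described below that hold a core. That of *Lars2* is printed as an example with neither core. *Lonp1*, *Lrpprc*, *Tfb1m* and *Tfb2m* are among the other genes with neither. Each runs from 160 bases before the start to 30 bases after it, 5′ to 3′ on the gene's strand, with ETS and NRF1 cores in capitals.
Tfam, chr10:71238015-71238204, minus strand: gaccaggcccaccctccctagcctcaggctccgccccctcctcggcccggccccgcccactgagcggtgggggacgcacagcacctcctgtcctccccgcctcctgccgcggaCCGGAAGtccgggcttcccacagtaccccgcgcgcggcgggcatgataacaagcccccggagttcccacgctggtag
Polrmt, chr10:79746552-79746741, minus strand: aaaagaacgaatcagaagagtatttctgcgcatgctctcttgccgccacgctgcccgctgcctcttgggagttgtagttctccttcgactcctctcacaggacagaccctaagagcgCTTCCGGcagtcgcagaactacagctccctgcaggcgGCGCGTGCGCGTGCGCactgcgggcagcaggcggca
Tufm, chr7:126487195-126487384, plus strand: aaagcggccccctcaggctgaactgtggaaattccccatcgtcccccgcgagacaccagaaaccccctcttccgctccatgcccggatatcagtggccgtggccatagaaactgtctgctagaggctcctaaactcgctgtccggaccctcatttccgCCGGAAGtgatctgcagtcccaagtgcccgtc
Slirp, chr12:87443736-87443925, plus strand: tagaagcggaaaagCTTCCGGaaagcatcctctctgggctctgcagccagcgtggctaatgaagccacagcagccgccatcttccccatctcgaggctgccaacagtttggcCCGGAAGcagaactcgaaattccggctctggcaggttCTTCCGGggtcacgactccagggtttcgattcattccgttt
Lars2, chr9:123366767-123366956, plus strand: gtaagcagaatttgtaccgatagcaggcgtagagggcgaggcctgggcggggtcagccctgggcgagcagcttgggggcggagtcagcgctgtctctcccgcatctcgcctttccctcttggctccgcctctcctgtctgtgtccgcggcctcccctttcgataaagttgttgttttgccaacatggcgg
The ETS core began 47 bases before the start in *Tfam*, 43 before it in *Polrmt* and 2 before it in *Tufm*. *Slirp* held 3, beginning 146, 48 and 11 bases before the start. *Polrmt* also held 2 overlapping NRF1 cores over the start itself. A match is a string of letters and says nothing of binding in these cells.

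Levels are compared between genes per kilobase of the annotated principal transcript, as CPM per kb in controls. Without *Lars2*, the genes spanned from 0.135 CPM per kb in *Ppargc1a* to 35.2 in *Lonp1*, which encodes the matrix protease that degrades TFAM among other proteins. Among the genes for mtDNA upkeep, *Lonp1* was the highest and *Mgme1*, a DNA exonuclease of mitochondria, the lowest with 3.75. Among the transcription genes, *Tfb2m* was the highest with 14.4 and the elongation factor gene *Tefm* the lowest with 5.52. For RNA stability, *Lrpprc* stood at 26.1 and *Slirp* at 1.80, on principal transcripts of 4393 and 2701 bases. Where several transcripts share the best principal rank the longest was taken, so a level per kb depends on that choice. Of the nuclear regulators, *Gabpa* had 14.3 and *Nrf1* 14.1, which did not differ beyond the spread between mice (SD 1.31 and 1.83, n = 6), while *Ppargc1b* had 3.03. The translation factors ran from 6.32 in *Mtif3* to 25.8 in *Mtif2*, both initiation factors.

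Without *Lars2*, the 15 mitochondrial synthetases ran from 1.39 CPM per kb in *Mars2* to 22.4 in *Tars2*, with a median of 5.88. The 20 synthetases that serve the cytosol, or both compartments, had a median of 18.8 and ran from 7.60 to 48.8. The mitochondrial set thus had the lower median. The lengths rest on annotation, and *Mars2* is listed with a principal transcript of 11294 bases, the longest of all.

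**Figure D1:**
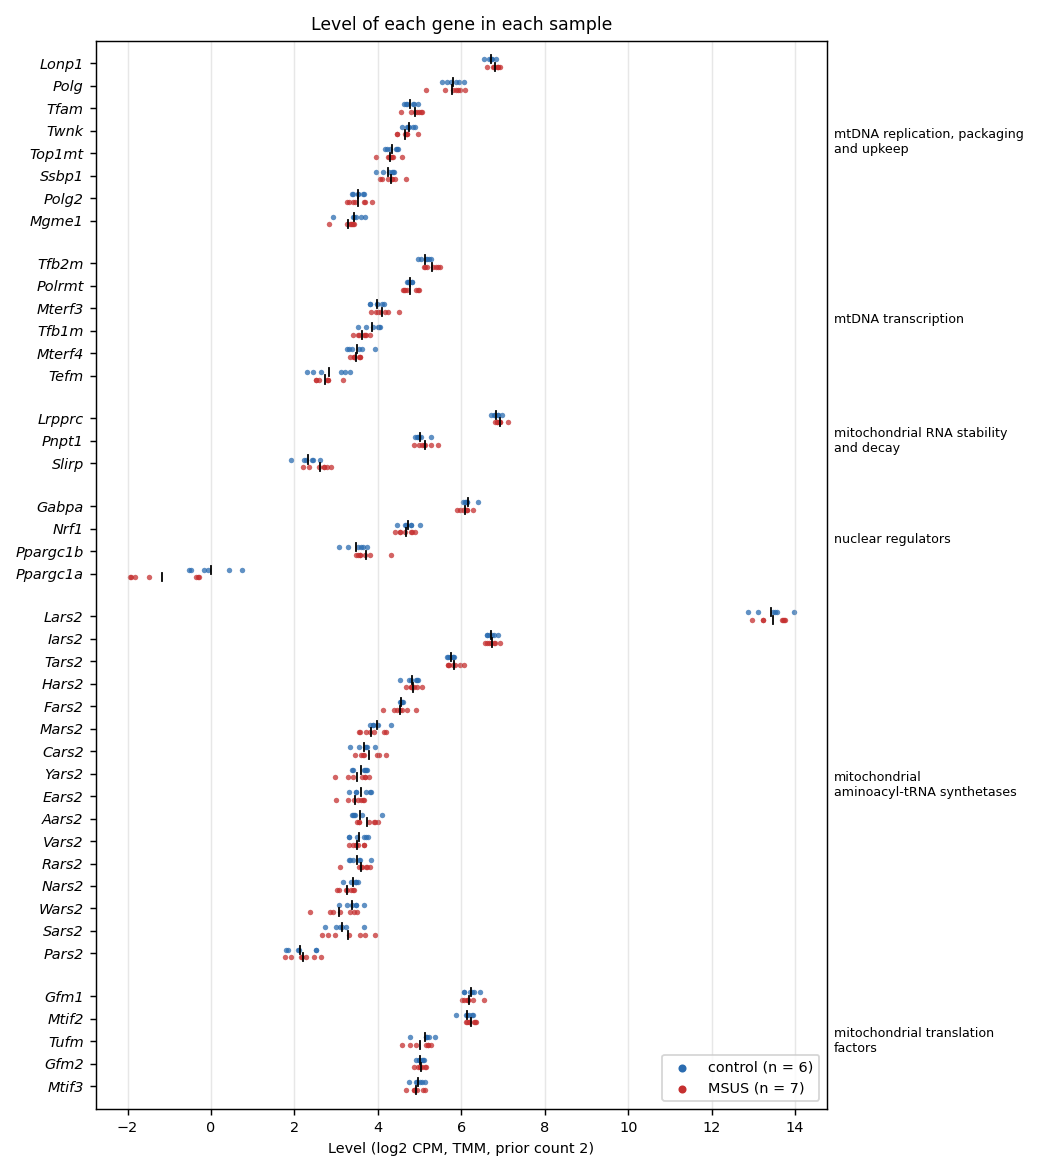
Level of each of the 42 genes in the table in each sample, in log2 CPM after TMM normalization, ordered by role and by control mean; blue points are controls (n = 6), red points MSUS (n = 7), and black ticks group means. *Lars2* sits near 13.4 while every other gene lies below 7.2, and the groups overlap in every gene.

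Whether MSUS changed the genes was asked by a limma voom fit over all 14421 genes. None of the 41 genes tested passed, at an unadjusted p under 0.05, the threshold the study used, or after adjustment. Over all genes tested, 5.42% passed at the unadjusted threshold and 0.0% after adjustment. Log2 fold changes of the 41 genes, MSUS minus control, ran from -0.31 in *Wars2* to 0.28 in *Slirp*, with a median of 0.0094. Of these, 22 were above 0 and 19 below, and over all genes 49.5% were above 0. In none of the 41 genes did the groups separate without overlap, against 0.132% of all genes. The median standard error was 0.12, and the 95% confidence intervals of all 41 genes lay between -0.67 and 0.63. edgeR's quasi-likelihood test and DESeq2 each called 1 of the 41 genes at the unadjusted threshold, *Tfb1m*, beside 5.5% and 5.79% of all genes.

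*Tfam*, the packaging protein gene, was measured at 4.62 to 4.97 log2 CPM in controls (median 4.77) and at 4.55 to 5.06 in MSUS (median 4.94). The groups overlapped, and the lowest sample of all was an MSUS sample. Its log2 fold change was 0.12 with a standard error of 0.094 (limma voom adjusted p = 0.893). *Polg* ran from 5.53 to 6.08 in controls (median 5.81) and from 5.16 to 6.09 in MSUS (median 5.88). Its log2 fold change was -0.038 with a standard error of 0.13. *Lonp1* ran from 6.54 to 6.84 in controls (median 6.71) and from 6.61 to 6.92 in MSUS (median 6.85). In 4 of 7 MSUS samples it was above every control, with a log2 fold change of 0.11, a standard error of 0.065 and a limma voom adjusted p = 0.878. It passed the unadjusted threshold without control 10, with 0.14, and without MSUS 13, with 0.15. Of all genes, 7.7% and 7.15% passed in these fits. The log2 fold changes of the remaining upkeep genes, *Polg2*, *Twnk*, *Ssbp1*, *Mgme1* and *Top1mt*, lay between -0.12 and 0.062.

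The mitochondrial RNA polymerase gene *Polrmt* varied little in controls, from 4.70 to 4.83 log2 CPM (median 4.75), and ran from 4.60 to 4.99 in MSUS (median 4.70). Of the 7 MSUS samples, 3 lay above and 4 below every control, so none fell within the control range. That narrow range rests on few controls, with 262 to 379 counts each, and a difference in spread was not tested. The log2 fold change of *Polrmt* was 0.012 with a standard error of 0.086 (limma voom adjusted p = 0.984). Its partner *Tfb2m* ran from 4.97 to 5.27 in controls (median 5.17) and from 5.11 to 5.49 in MSUS (median 5.33). In 4 of 7 MSUS samples it was above every control, with a log2 fold change of 0.15, a standard error of 0.084 and a limma voom adjusted p = 0.878. It passed the unadjusted threshold without MSUS 11 or without MSUS 26, with 0.19 in each. Of all genes, 7.35% and 5.02% passed in these fits.

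*Tfb1m*, which encodes the methyltransferase that dimethylates the small mitochondrial ribosomal RNA, had the smallest p of the 41 genes. It ran from 3.51 to 4.04 log2 CPM in controls (median 3.94) and from 3.39 to 3.80 in MSUS (median 3.66). All 7 MSUS samples were below the control mean, but the lowest control lay within the MSUS range. Its log2 fold change was -0.23 with a standard error of 0.12 (limma voom adjusted p = 0.878). It passed the unadjusted threshold in the edgeR quasi-likelihood test, with -0.25, and in DESeq2, with -0.24. It also passed in the limma voom fit without control 12, with -0.30, where 3.99% of all genes passed. *Mterf3* and *Mterf4*, named for the termination factor family, and the elongation factor gene *Tefm* had log2 fold changes of 0.13, -0.014 and -0.052.

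The 3 genes of RNA stability and decay each had a log2 fold change above 0, and none passed the test. *Slirp* ran from 1.91 to 2.60 log2 CPM in controls (median 2.36) and from 2.20 to 2.88 in MSUS (median 2.71), on 46 to 80 counts per sample. In 4 of 7 MSUS samples it was above every control, with a log2 fold change of 0.28, a standard error of 0.17 and a limma voom adjusted p = 0.878. Its binding partner *Lrpprc* ran from 6.71 to 6.96 in controls (median 6.84) and from 6.82 to 7.12 in MSUS (median 6.91), with a log2 fold change of 0.080, a standard error of 0.061 and a limma voom adjusted p = 0.890. *Pnpt1*, the polynucleotide phosphorylase gene, had a log2 fold change of 0.10.

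Among the nuclear regulators, *Ppargc1b* had a log2 fold change of 0.24 (SE 0.15, limma voom adjusted p = 0.878) and was above the control mean in 7 of 7 MSUS samples. With the elongated spermatid score as a covariate *Ppargc1b* was past the unadjusted threshold, in a fit in which 8.35% of all genes were. *Gabpa* had -0.071 and *Nrf1* -0.079. *Ppargc1a* was at the edge of detection. Its counts were 6, 7, 7, 8, 16 and 22 in controls and 1, 1, 1, 2, 7, 7 and 7 in MSUS. Every MSUS sample was at or below 7 counts, and 4 of 7 lay below the lowest control in log2 CPM. Mean log2 CPM was -0.010 ± 0.50 over controls (SD, n = 6) and -1.16 ± 0.81 over MSUS samples (SD, n = 7), and the exact two-sided permutation test of this difference gave p = 0.0221. In a limma voom fit without a count filter the log2 fold change was -1.58 with a standard error of 0.50 (adjusted p = 0.929). In that fit 2.58% of 23680 genes were lower in MSUS at an unadjusted p under 0.05. edgeR's quasi-likelihood test on the same genes gave -1.36 with adjusted p = 0.788, and it called 2.88% of genes lower. Leaving out each sample in turn gave limma voom log2 fold changes from -1.78 to -1.37, each past the unadjusted threshold. The difference did not pass adjustment over all genes, and it rests on few counts.

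Of the 16 mitochondrial synthetases tested, *Lars2* included, 9 had a log2 fold change above 0 and 7 below. *Wars2*, the tryptophan enzyme gene, ran from 3.08 to 3.67 log2 CPM in controls (median 3.42) and from 2.38 to 3.49 in MSUS (median 3.09). In 3 of 7 MSUS samples it was below every control, with a log2 fold change of -0.31, a standard error of 0.17 and a limma voom adjusted p = 0.878. It passed the unadjusted threshold without MSUS 5, MSUS 13 or control 22, with -0.38 in each. Of all genes, 3.74%, 7.15% and 5.53% passed in these fits. *Nars2*, the asparagine enzyme gene, ran from 3.16 to 3.52 in controls (median 3.45) and from 3.03 to 3.42 in MSUS (median 3.26). Its log2 fold change was -0.15 with a standard error of 0.12 (limma voom adjusted p = 0.891). *Fars2*, for phenylalanine, ran from 4.53 to 4.59 in controls (median 4.56) and from 4.13 to 4.91 in MSUS (median 4.53). Its log2 fold change was -0.034. The narrower range rests on 6 controls, and a difference in spread was not tested. The remaining 12 without *Lars2* had log2 fold changes between -0.15 in *Ears2* and 0.16 in *Aars2*. The translation factors had log2 fold changes between -0.12 in *Tufm*, the gene of the elongation factor that delivers tRNA to the ribosome, and 0.080 in *Mtif2*.

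**Figure D2:**
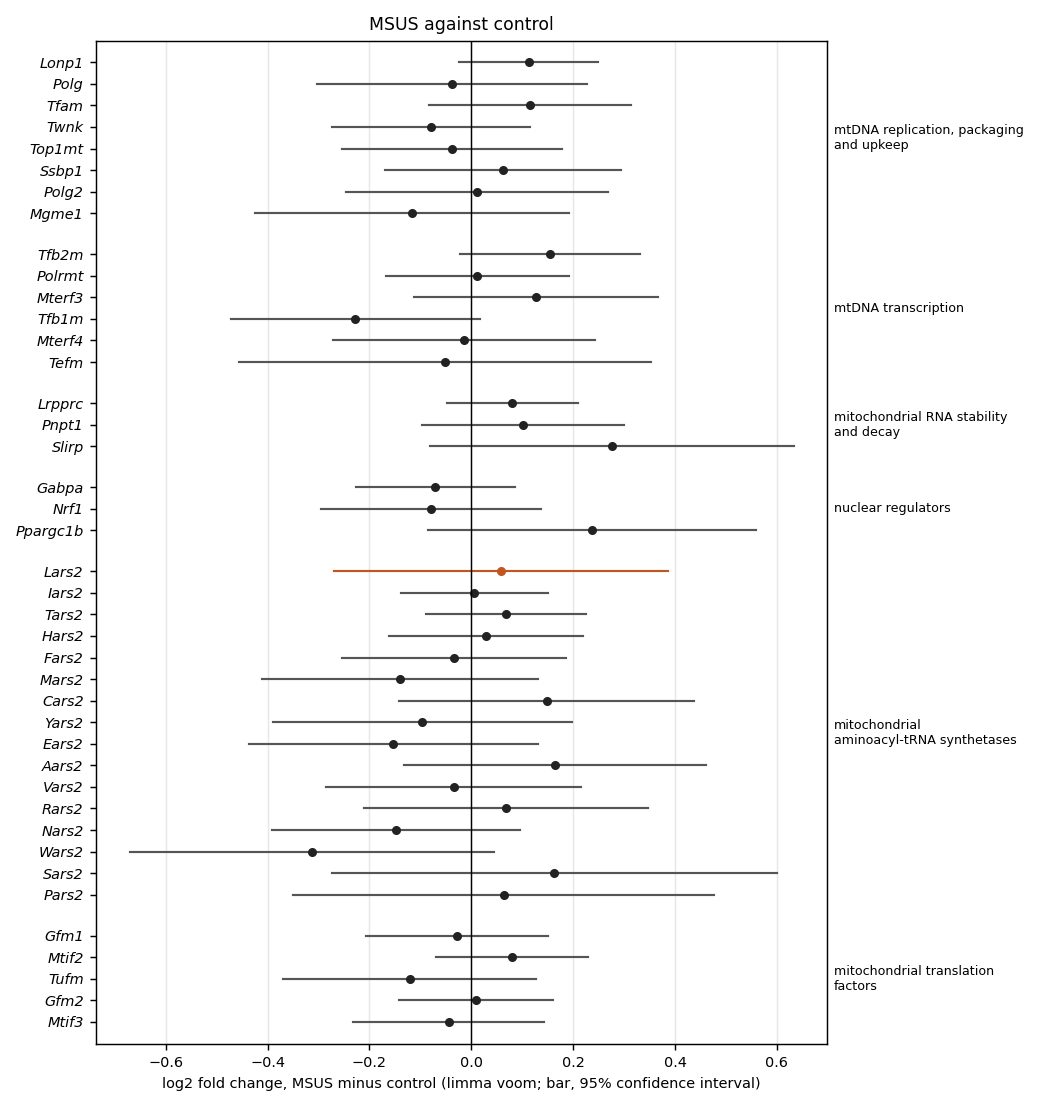
Log2 fold change, MSUS minus control, of the 41 genes tested, by role; points are limma voom estimates, bars 95% confidence intervals, and *Lars2* is orange. Every interval includes 0, and estimates run from -0.31 in *Wars2* to 0.28 in *Slirp*.

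Averaged per sample over the genes of a role, as a mean deviation from each gene's own mean, the groups differed most in RNA stability and decay. The difference, MSUS minus control, was 0.16 on the log2 scale for these 3 genes, beside an SD of 0.050 in controls and 0.11 in MSUS. Controls ran from -0.14 to 0.0013 and MSUS samples from -0.053 to 0.28, so the groups overlapped. The difference was -0.00083 for the 8 upkeep genes, -0.011 for the 6 transcription genes, 0.031 for the 3 nuclear regulators tested, -0.016 for the 15 synthetases without *Lars2* and -0.022 for the 5 translation factors, each smaller than the SD within either group. Over all 40 genes tested without *Lars2* it was 0.0035, with controls between -0.040 and 0.030 and MSUS samples between -0.038 and 0.042.

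Other genes of the pathway, listed by role, gave 65 genes tested. Of these, 1 was higher and 2 were lower in MSUS at an unadjusted p under 0.05, beside 3.02% higher and 2.4% lower over all genes, and none passed adjustment. *Pprc1*, a coactivator gene related to *Ppargc1a*, ran from 4.77 to 5.19 log2 CPM in controls (median 5.04) and from 5.15 to 5.50 in MSUS (median 5.27). All 7 MSUS samples were above the control mean, and 4 were above every control, with a log2 fold change of 0.29, a standard error of 0.088 and a limma voom adjusted p = 0.878. With *Malat1* as a covariate it was 0.19 and not past the unadjusted threshold. *Trnt1*, whose enzyme adds the CCA end to tRNA, was lower by a log2 fold change of -0.21 (SE 0.076), and 5 of 7 MSUS samples lay below every control. *Nsun3*, whose enzyme methylates mitochondrial methionine tRNA, was lower with -0.34 (SE 0.16), a call lost in 8 of the 13 fits that left out 1 sample. It was also lost in edgeR, in DESeq2 and with the spermatid score, the mitochondrial mRNA share or *Malat1* as a covariate, with *Nsun3* at -0.22 in each of the last pair of fits. *Supv3l1*, the helicase gene named above, had 0.15 and did not pass. Of the 20 cytosolic synthetases, 1 passed at an unadjusted p under 0.05, beside 5.42% of all genes, and none passed adjustment. This was *Farsb*, a subunit gene of the phenylalanine enzyme. *Farsb* was lower with -0.20 (SE 0.086, limma voom adjusted p = 0.878), and 6 of 7 MSUS samples lay below every control. Its call was lost without MSUS 6, 23 or 26 or control 9 or 22, and with the mitochondrial mRNA share (-0.18) or *Malat1* (-0.14) as a covariate. Both of these covariates ran higher in MSUS, as given below.

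The relation to mitochondrial mRNA was measured against a score, the mean log2 CPM deviation of the 13 protein-coding genes of mtDNA. Controls had scores of -0.51 to 0.17, and MSUS samples -0.25 to 0.55. The mean score was higher in MSUS by 0.34, beside an SD of 0.25 in controls and 0.32 in MSUS. Of the 13 genes, 7 were higher in MSUS at an unadjusted p under 0.05, beside 3.02% of all genes, and none passed adjustment. The paper reports a significant difference in mitochondrial copy number between the groups in this batch. Its part in the levels here was not tested. By RT-qPCR in another batch of males, the paper reports mitochondrial genes mostly lower in MSUS, among them *ND4*, *ND6* and *CYTB* significantly. Correlations over the 13 samples have no group term, so the group difference in the score enters them. The slope of each gene on the score was fitted over all genes with group as a term. Of the 41 genes, 1 had a positive and 1 a negative slope at an unadjusted p under 0.05, beside 4.63% and 4.08% of all genes (8.72% in either direction), and none passed adjustment. Slopes were above 0 in 15 of the 41 genes and in 49.2% of all genes. Of all genes, 7 (0.0485%) passed adjustment. These were genes of mtDNA that make up the score, so their slopes are set by its construction and are no result.

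*Tufm* had the steepest negative slope, -0.57 with a standard error of 0.18 (limma voom adjusted p = 0.494). It ran from 4.78 to 5.36 log2 CPM in controls (median 5.16) and from 4.58 to 5.27 in MSUS (median 5.14). The sample with the highest mitochondrial mRNA score, MSUS 5, had the lowest *Tufm* level, and the sample with the lowest score, control 24, had the highest. Pearson's r over the 13 samples was -0.73 (permutation p = 0.00464, adjusted p = 0.201) and Spearman's rho -0.87 (permutation p = 0.00023, adjusted p = 0.174). Pearson's r was -0.53 within controls, -0.80 within MSUS and -0.76 without the 2 samples farthest from the median score, MSUS 5 and MSUS 6.

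*Mterf3*, named for the termination factor family and known to restrain mtDNA transcription, had a slope of 0.45 with a standard error of 0.19 (limma voom adjusted p = 0.554). It ran from 3.82 to 4.14 log2 CPM in controls (median 3.98) and from 3.84 to 4.50 in MSUS (median 4.05), and its highest level was in MSUS 5. Pearson's r was 0.75 (permutation p = 0.00229, adjusted p = 0.188) and Spearman's rho 0.78 (permutation p = 0.00252, adjusted p = 0.210). Pearson's r was 0.73 within controls, 0.69 within MSUS and 0.52 without the 2 farthest samples. The slope did not pass the unadjusted threshold without MSUS 5, with 0.31, without control 9, with 0.42, or without control 24, with 0.45.

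The level of *Malat1*, an abundant nuclear RNA, moved with the mitochondrial mRNA score, with r = 0.82 over the 13 samples. *Malat1* itself was higher in MSUS by a log2 fold change of 0.70 (SE 0.22, limma voom adjusted p = 0.878), past the unadjusted threshold, and was above the control mean in 7 of 7 MSUS samples. The covariate thus differs between the groups, and a fold change fitted with it is not the plain difference between them. With *Malat1* as a covariate the slope of *Tufm* was -0.16 and that of *Mterf3* 0.14. Neither relation was past the unadjusted threshold in that fit. *Polg*, with a slope of -0.76, and *Aars2* were past it there, so the count of 2 of the 41 genes rested on different genes, beside 2.77% of all genes.

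Slopes with the next smallest p were 0.43 in *Polg2*, 0.47 in *Ears2* and 0.47 in *Cars2* among the positive ones, and -0.44 in *Yars2* and -0.32 in *Fars2* among the negative ones. None of these passed (limma voom adjusted p-values from 0.589 to 0.635). Each passed the unadjusted threshold in some fits without 1 sample. These were without MSUS 6 or control 10 for *Polg2*, without MSUS 5 or 13 for *Ears2* and without MSUS 26 or control 14 or 24 for *Cars2*. They were without MSUS 1 or 11 for *Yars2* and without MSUS 23 for *Fars2*. Of all genes, 6.01% to 10.3% passed in these fits. With sample quality weights *Polg2*, *Cars2*, *Yars2*, *Fars2* and *Vars2* passed it, in a fit in which 14.1% of all genes did. *Cars2* also passed with the spermatid score as a covariate and without a group term. *Polg2* ran from 3.37 to 3.66 log2 CPM in controls (median 3.52) and from 3.27 to 3.87 in MSUS (median 3.45). *Ears2*, for glutamate, ran from 3.31 to 3.83 in controls (median 3.59) and from 2.99 to 3.68 in MSUS (median 3.53). *Cars2*, for cysteine, ran from 3.32 to 3.93 in controls (median 3.71) and from 3.46 to 4.19 in MSUS (median 3.67). *Yars2*, for tyrosine, ran from 3.38 to 3.73 in controls (median 3.68) and from 2.96 to 3.79 in MSUS (median 3.61). *Tefm* had a slope of -0.53 with a wide interval (-1.27 to 0.21), and passed the unadjusted threshold without MSUS 6 and in controls alone. Slopes near 0 were -0.11 in *Tfam* (95% confidence interval -0.48 to 0.27), -0.019 in *Polrmt* (-0.36 to 0.33) and -0.0083 in *Lrpprc* (-0.25 to 0.23). Over the 13 samples, 6 of the 41 genes had a Pearson correlation with a permutation p under 0.05, or 14.6%, beside 13.4% of all genes.

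**Figure D3:**
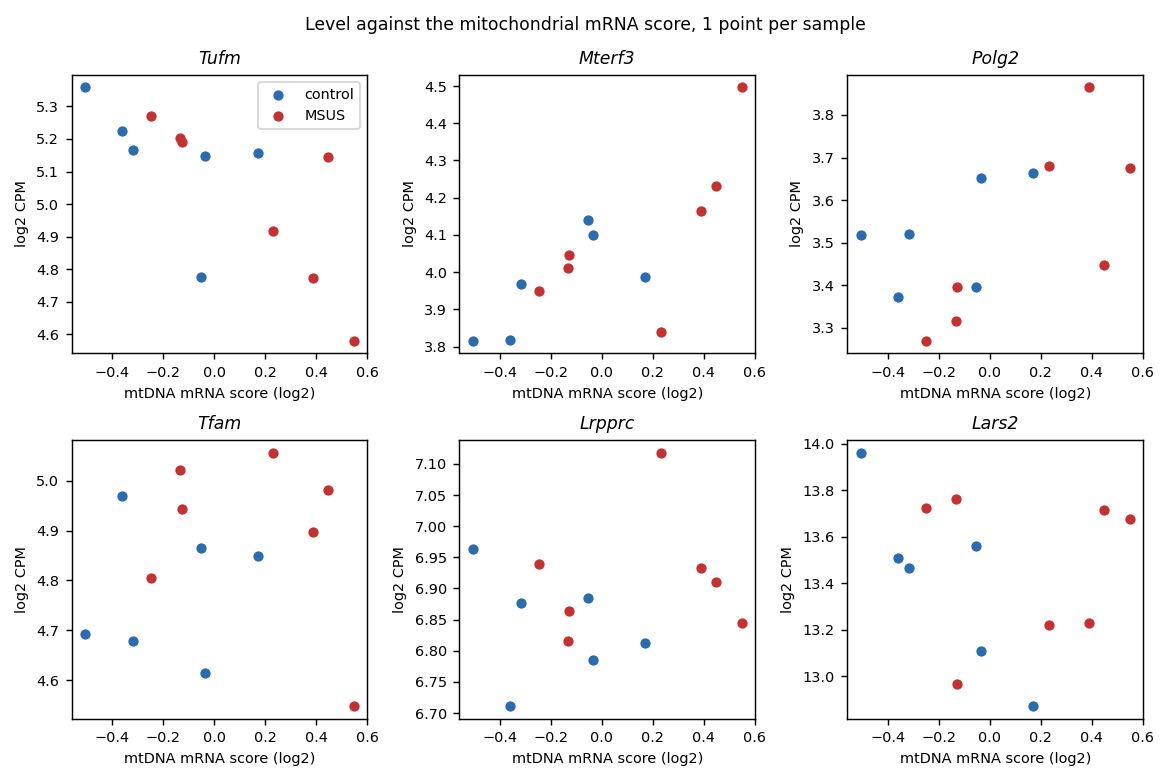
Level (log2 CPM) of 6 genes against the mitochondrial mRNA score of the same sample (mean log2 deviation of 13 mtDNA genes), 1 point per sample, blue for control (n = 6) and red for MSUS (n = 7); vertical axes differ between panels. *Tufm* falls along the score (r = -0.73), *Mterf3* rises (r = 0.75), and *Tfam* has r = 0.053.

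**Figure D4:**
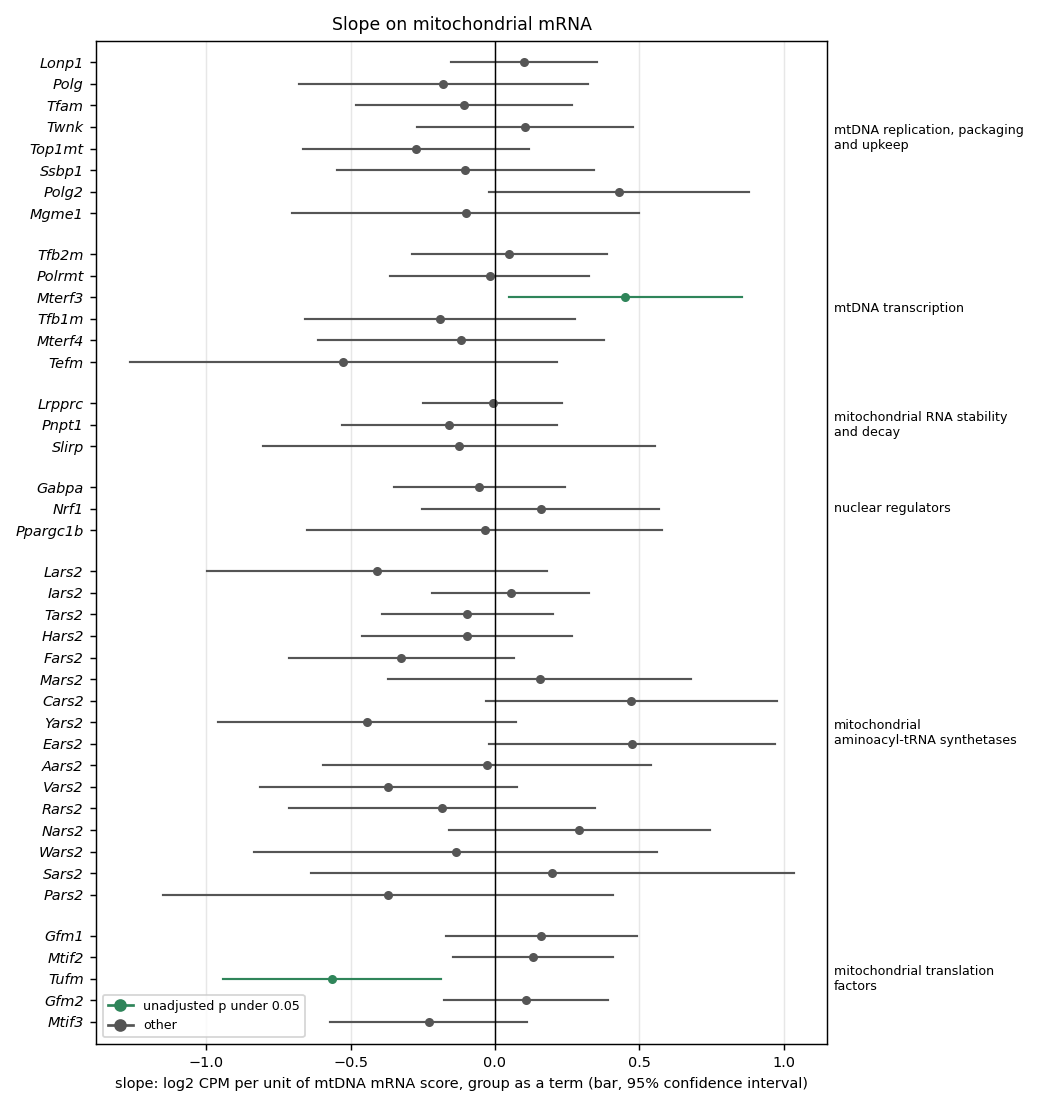
Slope of log2 CPM on the mitochondrial mRNA score for the 41 genes tested, with group as a term; bars are 95% confidence intervals. The 2 green genes, *Tufm* at -0.57 and *Mterf3* at 0.45, have intervals that exclude 0 before adjustment.

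*Lars2*, for leucine, lies on chromosome 9 of GRCm38 from 123366927 to 123462666 on the plus strand. It ran from 7500 to 15960 CPM in controls, with a mean of 11225 ± 2933 (SD, n = 6), and from 8011 to 13891 in MSUS, with a mean of 11588 ± 2440 (SD, n = 7). The other 40 genes tested summed to 1223 ± 10.2 CPM in controls and 1242 ± 46.0 in MSUS. *Lars2* thus had 9.27 ± 2.12 times their sum (SD, n = 13) and took 1.12% ± 0.26 of the named counts in controls. Per kb it was 129-fold above *Tars2*, the next mitochondrial synthetase. It did not differ between groups beyond the spread, with a log2 fold change of 0.058 and a standard error of 0.16 (limma voom adjusted p = 0.968). Its level varied more than that of most of the genes, with an SD of 0.34 on the log2 scale over the 13 samples, beside a median of 0.18 for the others.

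The log2 CPM of 5 genes ran most like that of *Lars2* over the 13 samples. They were *LOC115486827* (r = 0.94), the small nucleolar RNA *Snora47* (r = 0.93), *LOC115490317* (r = 0.92), *Rnu3b1* (r = 0.92) and *LOC115487061* (r = 0.91). *Rnu3b1* is a U3 RNA that RefSeq lists under the small nuclear RNAs. The ribosomal RNA entry *n.R5s100*, named after its values were seen, ranked 11 with r = 0.90. *Malat1*, the other abundant RNA compared, had r = -0.071 and ranked 8531, so abundant RNAs did not all follow *Lars2*. The other 40 genes had r between -0.51 and 0.49 with a median of 0.091. The 3 entries whose names begin with LOC were not matched to a RefSeq gene. The 13 points share library, depth and normalization across all these genes.

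**Figure D5:**
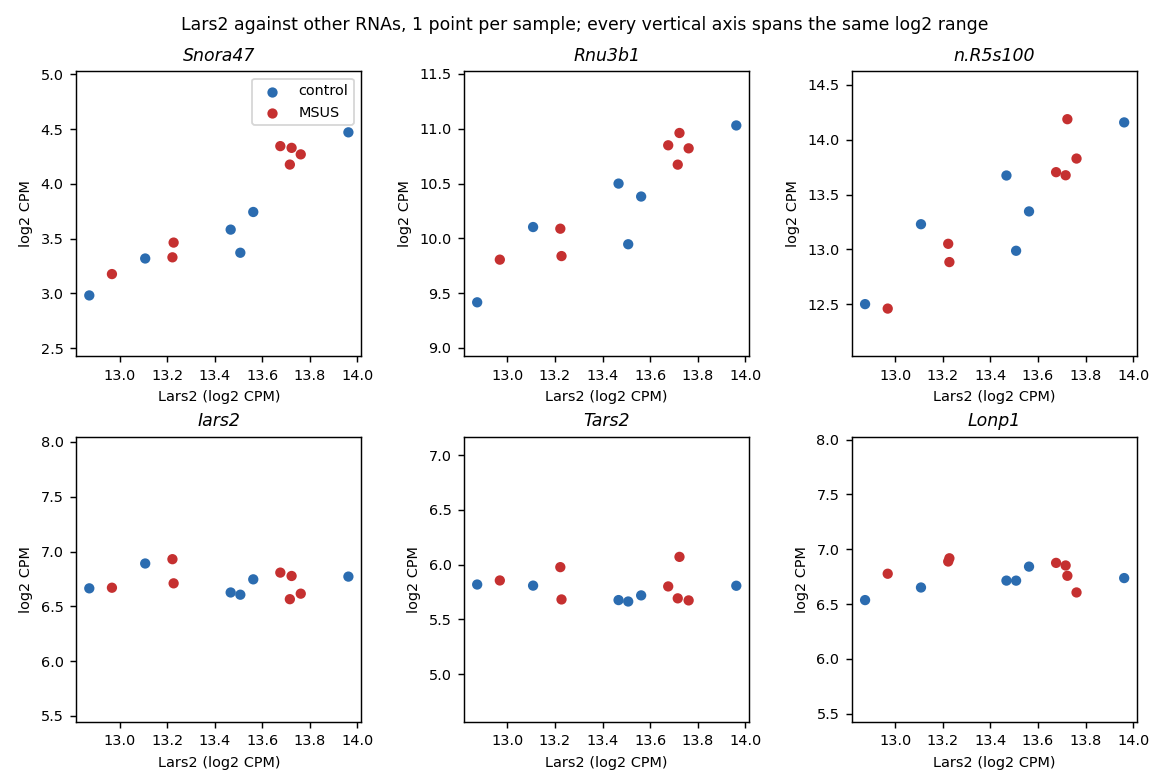
*Lars2* level (log2 CPM) against the level of 3 structural RNAs (top) and 3 genes of mitochondrial upkeep and translation (bottom), 1 point per sample, blue for control (n = 6) and red for MSUS (n = 7). *Snora47*, *Rnu3b1* and *n.R5s100* rise with *Lars2* (r = 0.93, 0.92 and 0.90), while *Iars2*, *Tars2* and *Lonp1* stay nearly level.

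Reads that could belong to another gene were looked for in the annotation. Of the 3864 stretches of 31 bases in the principal transcript of *Lars2*, 42 (1.09%) also occurred in annotated transcripts of other genes. RNAs outside that annotation were not searched, so 1.09% may not be the full share that is ambiguous. All 42 lay between bases 3172 and 3329 of 3894, in the 3′ UTR, which begins at base 2909. The antisense transcript of *Gm15564* matched 72 bases there with 98.6% identity, and *AA474408* matched 196 bases with 80.1% identity. Neither is a row of the count table by name. How the counts of *Lars2* were spread along its transcripts was not analysed here. The part of shared bases in its level was therefore not tested.

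*Lars2* had a slope on the mitochondrial mRNA score of -0.41 with a standard error of 0.28 (limma voom adjusted p = 0.685). The slope was -1.31 in a fit of the controls alone, past the unadjusted threshold, and 0.039 in a fit of the MSUS samples alone. The difference between the slopes was 1.37 with a standard error of 0.50 (limma voom adjusted p = 0.934). For this difference 3 of the 41 genes, *Lars2*, *Pnpt1* and *Tefm*, had an unadjusted p under 0.05, beside 5.06% of all genes, and none passed adjustment. Without MSUS 11, the slope of *Lars2* over both groups was -0.65 and passed the unadjusted threshold.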

How the data were processed

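RNA of sorted Sertoli cells was prepared as stranded total RNA libraries and sequenced from 1 end. The authors trimmed reads with Trim Galore 0.6.5, assigned them with Salmon 1.1.0 to GENCODE transcripts and deposited estimated counts per gene, without normalization. Samples were grouped by their titles. The table had 54281 features. The 27170 with no gene name held 20.7% to 26.7% of the counts and entered neither library sizes nor tests. Estimated counts were rounded to whole numbers. Genes passing filterByExpr were fitted with limma 3.58.1 (voom, TMM by edgeR 4.0.16, R 4.3.3). The study's methods name TMM, voom and limma, while the filter, the rounding and the removal of unnamed features were chosen here. p-values were adjusted by Benjamini-Hochberg over all 14421 genes, and log2 CPM was computed with a prior count of 2. Correlations used 100000 permutations, two-sided, adjusted over the same genes. Total counts ranged from 12701776 to 18649945, and each sample is 1 male, so spread between mice limits the precision. Litters and cages were not used here, so standard errors and p-values treat all males as independent. The labels do not say whether some males shared a litter.

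The members, roles and lists were chosen with earlier results of these data known. The text names *Lars2*, *Tfam*, *Polg*, *Polrmt*, *Lrpprc*, *Slirp*, *Tufm* and *Ppargc1a*, the 3 genes with the smallest p in each direction for group and for slope, the highest and lowest per kb of each role, the 5 genes most like *Lars2*, and other pathway genes past the unadjusted threshold. *Ppargc1b*, *Cars2*, *Vars2*, *Supv3l1* and *n.R5s100* were named after their values were seen. Coordinates and transcripts were read from GENCODE vM21, which precedes the release used by the authors but has the same build, GRCm38. The scripts were tested on simulated data. Alternatives were edgeR and DESeq2 1.42.0, sample weights, other normalizations, filters and scores, 3 covariates and leaving out each sample. The difference of slopes and the fits of *Ppargc1a* without a filter were added after the data were seen.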

Additional observations from a re-analysis of the deposited data

Results flagged for a closer look

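Of 98 groups of values, 12 held a sample far from the others by Dixon's test at the 95% level, beside about 4.9 that chance gives at 1 in 20. All values are log2 CPM of 1 sample with the range of the rest of its group. *Mgme1* was 2.91 in control 10 (others 3.40 to 3.69) and 2.83 in MSUS 1 (others 3.25 to 3.42). *Lrpprc* was 7.12 in MSUS 1 (others 6.82 to 6.94). *Gabpa* was 6.40 in control 9 (others 6.05 to 6.14). *Ppargc1b* was 4.32 in MSUS 26 (others 3.48 to 3.80), and *Rars2* was 3.10 in the same sample (others 3.54 to 3.80). *Aars2* was 4.09 in control 10 (others 3.38 to 3.62). *Mars2* was 4.31 in control 22 (others 3.81 to 3.998). *Tufm* was 4.78 in control 10 (others 5.15 to 5.36). Control 10 thus holds 3 of the 9 single-gene values, for *Mgme1*, *Aars2* and *Tufm*. Among the mean deviations per role, the upkeep genes stood at 0.091 in control 14 (others -0.045 to 0.0038), the transcription genes at 0.14 in MSUS 6 (others -0.062 to 0.0033) and the synthetases without *Lars2* at 0.086 in MSUS 1 (others -0.037 to 0.0013).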

How the results depend on the processing

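The count of the 41 genes past the unadjusted threshold for MSUS against control was 0, and it was 1 with edgeR, DESeq2 or library size alone (*Tfb1m*), 1 with no count filter (*Ppargc1a*), 1 with the elongated spermatid score as a covariate (*Ppargc1b*) and 0 to 2 when each sample was left out. The share of all genes past that threshold was 5.42% in the main fit, 5.5% with edgeR, 5.79% with DESeq2 and 5.51% with library size alone. It was 4.99% with no count filter, 5.71% with upper quartile normalization and 5.55% with unnamed features kept. With sample quality weights the share was 7.25%. As covariates, the spermatid score gave 8.35%, the mitochondrial share 2.79% and *Malat1* 2.78%. With a sample left out the share ran from 3.74% to 7.7%. For other pathway genes the count was 3, 6 with sample quality weights and 2 to 7 with a sample left out. The 7 came without MSUS 26, where 5.02% of all genes passed. For cytosolic synthetases it was 1, 4 with sample quality weights, 3 with library size alone or the spermatid score, 2 with upper quartile normalization or with unnamed features kept, 0 with the mitochondrial share or *Malat1* as a covariate, and 0 to 4 with a sample left out. For the slope on mitochondrial mRNA the count was 2, 7 with sample quality weights, 4 with library size alone, 1 within MSUS alone and 1 to 4 with a sample left out. Of all genes, 8.72% were past the threshold for the slope, 14.1% with sample quality weights and 6.01% to 11.6% with a sample left out. The share was 9.17% with library size alone and 7.71% within MSUS alone. Without a count filter *Ppargc1a* enters, and the score difference was -0.27 for the nuclear regulators and -0.030 for all genes without *Lars2*.

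Some values changed sign. The log2 fold change of *Lars2* ran from -0.051 (without control 12) to 0.17 with a sample left out, and was also below 0 without control 22. With a sample left out, that of *Polg* ran from -0.090 to 0.068, *Polrmt* from -0.020 to 0.040, *Polg2* from -0.045 to 0.051 and *Fars2* from -0.097 to 0.034. With the mitochondrial share as a covariate the log2 fold change was 0.0031 in *Polg*, 0.045 in *Tufm*, -0.0013 in *Mterf3*, -0.10 in *Polg2*, 0.024 in *Yars2* and 0.061 in *Fars2*. With *Malat1* as a covariate it was 0.14 in *Tufm*, -0.077 in *Mterf3*, -0.077 in *Polg2*, 0.031 in *Yars2* and 0.098 in *Fars2*. With library size alone it was -0.0041 in *Polrmt* and -0.0071 in *Polg2*, and with sample quality weights -0.038 in *Polg2*.

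For slopes with a sample left out, *Tfam* ran from -0.19 to 0.071, *Polrmt* from -0.11 to 0.095, *Lrpprc* from -0.057 to 0.048 and *Slirp* from -0.28 to 0.082. With *Malat1* as a covariate the slope was 0.11 in *Tfam* and 0.0056 in *Lrpprc*. With no group term it was 0.021 in *Tfam*, 0.061 in *Lrpprc* and 0.14 in *Slirp*. Within controls it was 0.052 in *Tfam*, 0.22 in *Polg* and 0.0043 in *Fars2*, and within MSUS 0.039 in *Lars2* and 0.034 in *Lrpprc*. With library size alone it was 0.012 in *Polrmt* and 0.033 in *Lrpprc*, without a count filter 0.0031 in *Lrpprc*, and with sample quality weights 0.012 in *Slirp*. The cause of these changes was not tested. No paired analysis was possible because the groups share no replicate number and the labels give no litter or cage.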
